A study of Homo sapiens with 6 samples.

Results

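The KLF genes encode Krüppel-like factors, DNA-binding proteins that attach through zinc fingers at their carboxyl end to CACCC and GC-rich elements in promoters. The regions outside the fingers differ and set what each factor does: KLF2, KLF4, KLF5, KLF6 and KLF7 are mostly activators, KLF3 recruits the corepressor CtBP, and KLF9, KLF10, KLF11 and KLF13 recruit the corepressor Sin3. In epithelial and breast cells the family is known for control of proliferation, differentiation and the response to growth factors. The members described here are KLF2, KLF3, KLF4, KLF5, KLF6, KLF7, KLF9, KLF10, KLF11 and KLF13, found by taking every probe set that the platform annotation gives to exactly 1 of these symbols. This gave 32 probe sets for 10 genes of the 19775 named on the array, out of 41091 probe sets with 1 symbol and 54675 in all. A probe set is a group of short probes that together report 1 transcript or group of transcripts.

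The samples were MDA-MB-231 cells, an established human breast cancer line labelled as negative for the estrogen receptor, transfected with control siRNA or with LSD1 siRNA. Each group had 3 biological replicates, and both were harvested after 6 days and 2 rounds of transfection, with 1 Affymetrix array per replicate. LSD1, the product of KDM1A, is a histone demethylase that takes methyl groups from lysine 4 of histone H3. The comparison is of transcripts with and without its depletion. Both groups went through transfection, and the siRNA sequences are not given in the sources used here.

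KDM1A had signals of 2540, 2493 and 2295 with control siRNA and 291, 184 and 228 with LSD1 siRNA, so the arrays go with their labels. Signals are MAS5 values, a linear brightness that the authors scaled to the same trimmed mean (500.1) on each array. The mesenchymal-type markers VIM, CD44 and CAV1 had mean signals between 12289 and 32798 in the groups and did not pass the test. ESR1, the estrogen receptor gene, lay at 59.1 ± 6.65 with control siRNA and 75.7 ± 24.6 with LSD1 siRNA (SD, n = 3) and did not pass. Other luminal or HER2 markers were mostly brighter, and none passed. Their control and LSD1 siRNA means were 523 and 513 for GATA3, 581 and 507 for ERBB2, 163 and 129 for CDH1, and 60.7 and 29.5 for PGR. Of the endothelial markers PECAM1, CDH5, VWF and TEK and the leukocyte markers PTPRC, CD14, CD3E and LYZ, none passed the test, and 5 of these 8 lay below the brightness filter. Their summed signals ran from 180.2 to 224 (control) and 184 to 203 (LSD1 siRNA) for the endothelial list, and from 143 to 146 and 116 to 161 for the leukocyte list. The ratio of ACTB signal at the 3' end to that at the 5' end, a sign of RNA quality, was 1.74 on control array 1 and 1.33 to 1.43 on the other 5. Without control array 1 all 7 of KLF2, KLF3, KLF5, KLF6, KLF9, KLF10 and KLF13 kept the calls given here and KLF11 did not. Because cells were measured in bulk, a change in RNA per cell and a change in the make-up of the culture cannot be told apart.

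Most of the KLF genes differed between the groups, and they did not all move the same way. KLF9 rose the most, to 2.78 times its control signal, and KLF2 fell the most, to 0.474 times. KLF3, KLF5 and KLF13 rose by about the same amount, to 1.52, 1.59 and 1.5 times their control signals. KLF6 and KLF10 rose less, to 1.24 and 1.19 times, and KLF11 had a small fall to 0.824 times. KLF4 and KLF7 did not pass the test when each gene was represented by its brightest probe set.

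In that test, 6 of the 10 members were higher and 2 were lower at a limma adjusted p under 0.05, where 19.8% of all 13822 genes tested were higher and 21.3% were lower. The median log2 change of the members was 0.28, beside -0.02 over all genes tested. With 41.0% of all genes past the threshold in either direction, the KLF changes are also given by their place among all genes. Of the genes tested, 1.78% had a higher log2 change than KLF9, and 1.15% had a lower one than KLF2. KLF5, KLF3 and KLF13 were exceeded by 8.14%, 9.81% and 11.3% of genes, and KLF6 and KLF10 by 23.2% and 26.6%. KLF11 lay nearer the middle, with 26.3% of genes lower and 51.7% having a larger change in either direction. All log2 changes are differences of log2(signal + 15), a scale that understates the change of dim probe sets. Control and LSD1 siRNA arrays lay fully apart for 6 members that were higher and 2 that were lower, beside 24.2% and 26.2% of all genes (50.4% in either direction). For each of these 8 genes an exact two-sided permutation test gives p = 0.1, the smallest that 3 against 3 arrays allow.

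**Figure D1:**
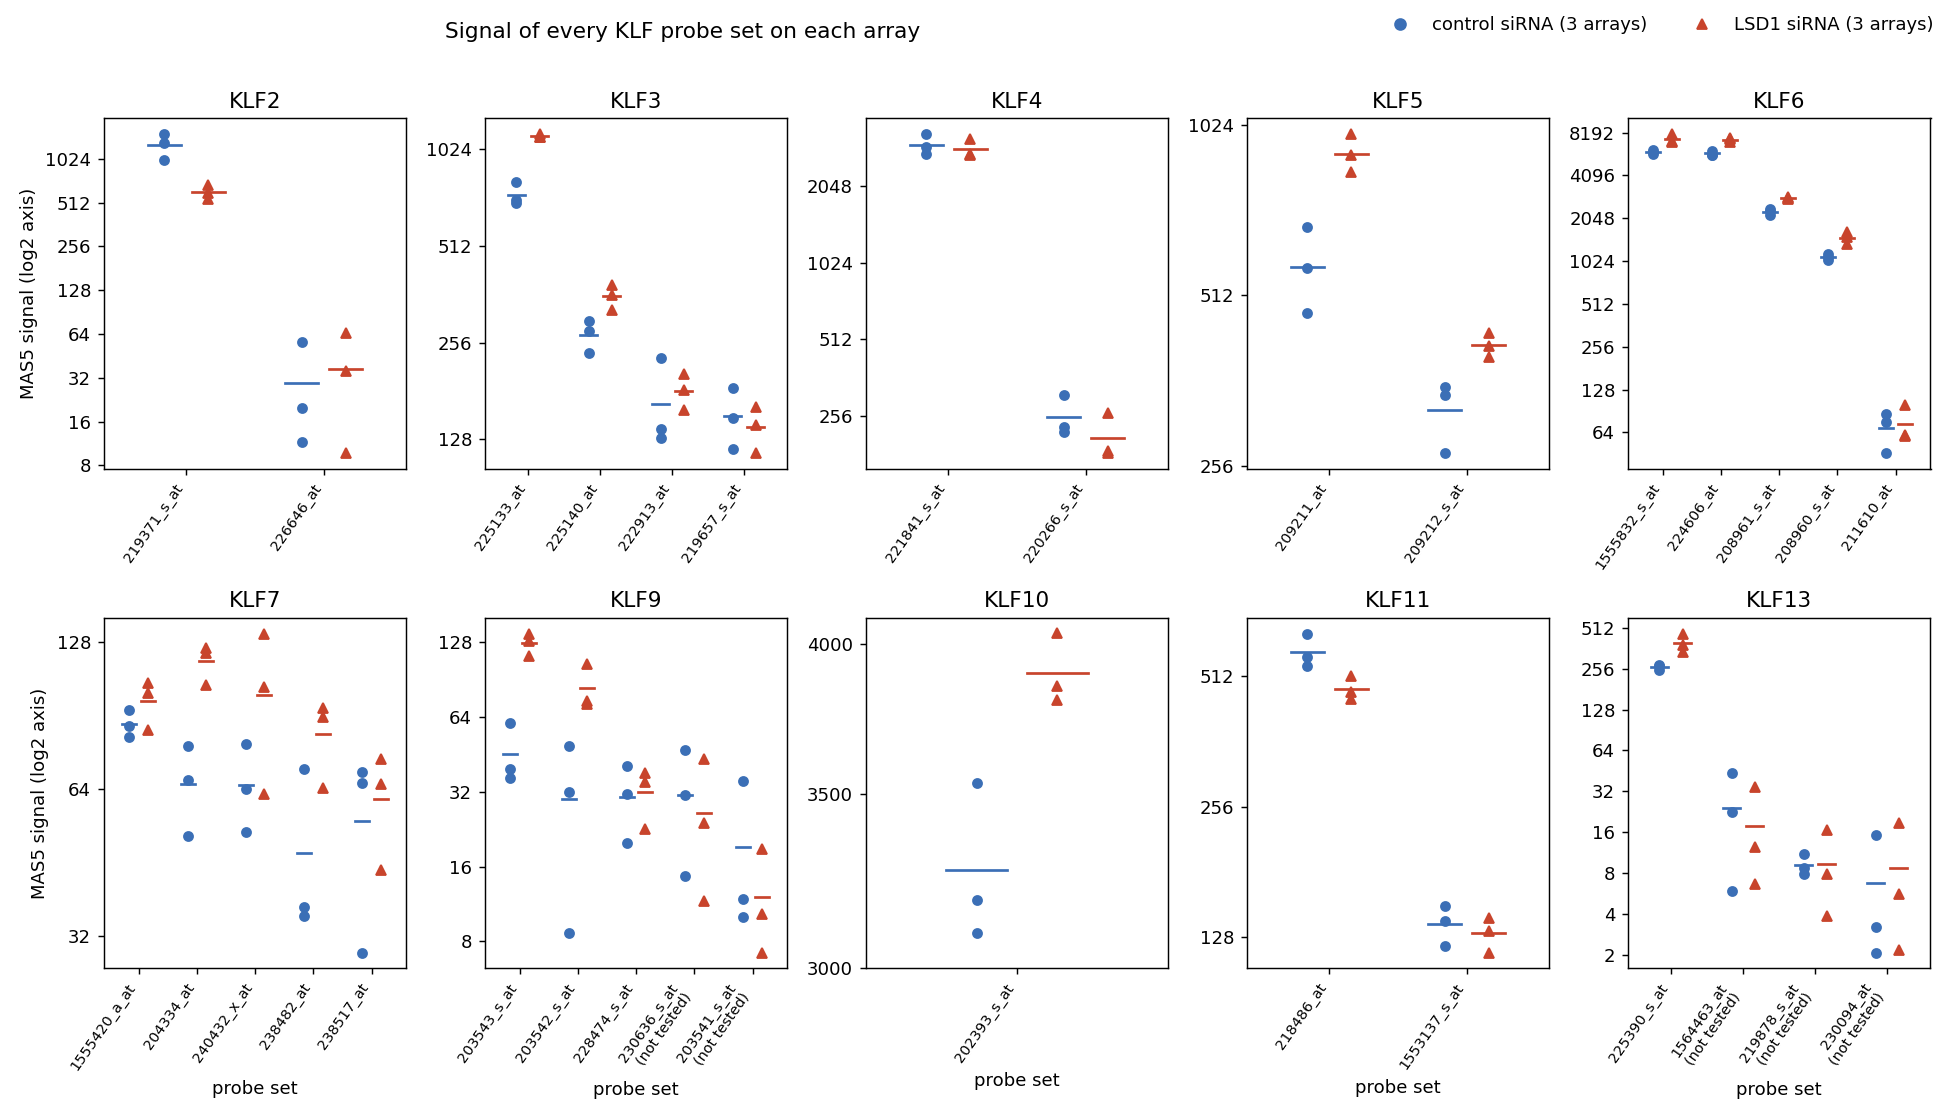
Signal of all 32 KLF probe sets (MAS5 signal on a log2 axis, 1 panel per gene with its own range, probe sets from brightest to dimmest), with blue circles for the 3 control siRNA arrays, red triangles for the 3 LSD1 siRNA arrays and a line at each group mean. The groups separate on the brightest set of KLF2, KLF3, KLF5, KLF6, KLF9, KLF10, KLF11 and KLF13 and overlap on that of KLF4 and KLF7.

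Promoter sequence is shown for 3 members that span the range of responses: KLF2 with the largest fall, KLF4 with no call, and KLF9 with the largest rise. KLF2 and KLF4 are shown together because both are known targets of the ERK5 kinase and its partner MEF2. Each line is the 250 bases before the RefSeq start site in GRCh38.p14, written 5′ to 3′ on the gene's own strand. Capitals mark matches, on either strand, to the GC box GGGCGG (read as CCGCCC on the other strand) and to the MEF2 consensus.
KLF2, chr19:16324576-16324825, plus strand: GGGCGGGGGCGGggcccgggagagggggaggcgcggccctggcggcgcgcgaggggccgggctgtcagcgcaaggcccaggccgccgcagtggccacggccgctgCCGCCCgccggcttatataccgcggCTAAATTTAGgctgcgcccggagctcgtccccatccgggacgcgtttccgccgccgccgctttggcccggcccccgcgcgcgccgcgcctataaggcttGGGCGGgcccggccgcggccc
KLF4, chr9:107489770-107490019, minus strand: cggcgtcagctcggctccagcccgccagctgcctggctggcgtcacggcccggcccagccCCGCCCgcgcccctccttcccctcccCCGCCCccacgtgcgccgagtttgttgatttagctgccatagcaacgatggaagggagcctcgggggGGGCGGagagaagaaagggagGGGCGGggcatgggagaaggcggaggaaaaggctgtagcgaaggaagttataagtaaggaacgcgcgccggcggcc
KLF9, chr9:70414658-70414907, minus strand: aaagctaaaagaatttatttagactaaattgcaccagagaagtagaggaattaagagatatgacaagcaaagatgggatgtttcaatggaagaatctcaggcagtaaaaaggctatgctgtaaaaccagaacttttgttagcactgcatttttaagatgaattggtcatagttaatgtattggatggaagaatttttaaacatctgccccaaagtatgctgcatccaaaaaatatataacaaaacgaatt

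The KLF2 window held 4 GC box matches and 1 match to the MEF2 consensus, CTAAATTTAG, which begins 120 bases before the start. The KLF4 window also held 4 GC box matches and no MEF2 match, and the KLF9 window held neither. Over 35116 RefSeq windows of the same length, which include several starts for some genes, 42.6% held the GC box and 2.80% the MEF2 consensus. Guanine and cytosine made up 80.0% of the KLF2 window, 69.2% of the KLF4 window and 32.4% of the KLF9 window, beside a median of 58.0% over all windows. Of the 10 members, 8 matched the promoter table, with 13 windows in all. The KLF6 window had 72.4% guanine and cytosine and 2 GC box matches, and the KLF13 window had 78.8% and 3. The CACCC element (GGGTG on the other strand), to which KLF proteins bind, was present in 54.7% of all windows and absent from those of KLF2, KLF4, KLF6 and KLF9. KLF13, KLF5, KLF7 and KLF11 had it in at least 1 window. These matches are letters in a window, and no binding was measured here.

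KLF2, an activator that keeps endothelial cells and T cells quiescent, fell. Its bright probe set 219371_s_at gave signals of 1312, 1507 and 1011 with control siRNA and 599, 676 and 539 with LSD1 siRNA. Each LSD1 siRNA array was below each control array, and the control arrays were the more spread out. The means were 1277 ± 250.2 and 605 ± 68.8 (SD, n = 3), a log2 change of -1.05 (standard error, SE, 0.13, limma adjusted p = 6.58e-05). Its other probe set, 226646_at, lay between 9.75 and 64.8 on all 6 arrays, with overlapping groups and a 95% interval of the log2 change from -0.88 to 1.27. With the mean of both probe sets in place of the brighter one, KLF2 was at -0.42 and no longer passed (adjusted p = 0.294).

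KLF4, an activator and repressor best known from epithelial differentiation and from reprogramming to pluripotency, did not pass. Probe set 221841_s_at gave 2726, 2894 and 3254 with control siRNA and 2735, 2704 and 3135 with LSD1 siRNA. The groups overlapped over nearly their whole range. The log2 change was -0.05 with a 95% interval from -0.23 to 0.13, which does not reach the value of KLF2. The dimmer probe set 220266_s_at was at -0.25, with an interval from -0.64 to 0.13. Whether KLF2 and KLF4 differ in their change was not tested directly, and their 95% intervals on the bright sets, -1.34 to -0.76 and -0.23 to 0.13, do not overlap.

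KLF5, an activator that promotes proliferation of epithelial cells, rose on both of its probe sets. On 209211_at the control arrays read 477, 572 and 677 and the LSD1 siRNA arrays 844, 986 and 906. All LSD1 siRNA arrays lay above all control arrays. The change in log2 was 0.66 (SE 0.12, limma adjusted p = 0.000812). The second set, 209212_s_at, had means of 322 ± 45.3 and 418 ± 20.2 (SD, n = 3), and its change of 0.37 passed with an adjusted p of 0.0350 in the test of every probe set. Without control replicate 1 that second set was at 0.25 (adjusted p = 0.121), and leaving out LSD1 siRNA replicate 1, 2 or 3 ended its call too (adjusted p of 0.0560, 0.115 and 0.0829). So did no filter, no intensity trend and the unmoderated test (adjusted p of 0.0575, 0.0683 and 0.113). In the same test the first set, 209211_at, was at 0.54 without control replicate 1 and still passed (adjusted p = 0.00309). It did not pass there in the unmoderated form (adjusted p = 0.0546).

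KLF6, an activator induced by injury and growth factors and described as a tumour suppressor, rose by a similar amount on 4 of its 5 probe sets. The brightest, 1555832_s_at, gave 5957, 6158 and 5829 with control siRNA and 7958, 7019 and 7199 with LSD1 siRNA. The set 224606_at gave 5730, 6131 and 5744 against 7339, 7486 and 7021. On each of these sets the groups were fully apart, as they were on 208961_s_at and 208960_s_at. The 4 log2 changes were 0.30, 0.31, 0.32 and 0.45, with standard errors of 0.07, 0.06, 0.07 and 0.09. The fifth set, 211610_at, read between 46.0 and 99.4 with overlapping groups and a value of 0.08. KLF6 kept its call with the mean of all 5 sets (0.29, adjusted p = 0.00544).

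KLF7, an activator known from neuronal development, had 5 dim probe sets. Their log2 changes were all positive but differed in size, and 1 passed in the test of every probe set. Its brightest, 1555420_a_at, read 86.2, 92.9 and 81.7 with control siRNA and 84.4, 105 and 101 with LSD1 siRNA, so the groups overlapped. The log2 change was 0.13 with a 95% interval from -0.31 to 0.56. On 204334_at the arrays were apart, with 51.2, 66.8 and 78.3 against 125, 121 and 104. That set passed in the test of every probe set, with a log2 change of 0.72, a standard error of 0.21 and an adjusted p of 0.0207. Its adjusted p was 0.0602, 0.0720 and 0.0692 when control replicate 1, LSD1 siRNA replicate 1 or LSD1 siRNA replicate 2 was left out. With no brightness filter it was 0.0603. Without control replicate 2, 204334_at became the representative of the gene, and KLF7 was then at 0.74 and passed (adjusted p = 0.0372). Without control replicate 1 the gene was at 0.59 (adjusted p = 0.0549). The remaining sets, 240432_x_at, 238482_at and 238517_at, had values of 0.48, 0.68 and 0.16 that did not pass. Set 238482_at was at 0.93 without control replicate 1 and passed there (adjusted p = 0.0258).

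KLF3, which recruits CtBP to repress genes in erythroid, fat and B cells, rose. Probe set 225133_at gave 709.5, 695.5 and 812 with control siRNA and 1139, 1117 and 1115 with LSD1 siRNA. The LSD1 siRNA arrays lay close together and well above the control arrays. The change in log2 was 0.60 (SE 0.08, limma adjusted p = 0.000107), the smallest p of the members that rose. The set 225140_at also rose, with mean signals of 271 ± 31.2 and 356 ± 31.8 (SD, n = 3) and a difference of 0.38 in log2 (adjusted p = 0.0373). This second call was lost in 7 of 17 other settings, among them without control replicate 1 (0.29, adjusted p = 0.121), control replicate 2 (adjusted p = 0.0664), LSD1 siRNA replicate 2 (adjusted p = 0.0968) and LSD1 siRNA replicate 3 (adjusted p = 0.137). The sets 222913_at and 219657_s_at had values of 0.16 and -0.09 with overlapping groups. The mean over all 4 sets was 0.26 and did not pass (adjusted p = 0.115).

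KLF9, a Sin3-recruiting factor induced by glucocorticoid and thyroid hormone, had the largest rise of the 10 members, from a dim start. Probe set 203543_s_at gave 39.5, 60.2 and 36.4 with control siRNA and 138, 113 and 129 with LSD1 siRNA. The lowest LSD1 siRNA array was well above the highest control array. The means were 45.4 ± 13.0 and 126 ± 12.6 (SD, n = 3), a log2 change of 1.24 (SE 0.24, limma adjusted p = 0.00115). A second set, 203542_s_at, gave 32.0, 48.7 and 8.67 against 72.0, 74.2 and 104, a change of 1.24 with an adjusted p of 0.0194. On the log2 scale the mean of its control arrays lay below the brightness filter. It was therefore tested only because its LSD1 siRNA arrays were high, and its p is not separate support for the rise. With no filter its adjusted p was 0.0494. Without LSD1 siRNA replicate 3 this second set was at 1.09 and did not pass (adjusted p = 0.0828). It also did not pass with no intensity trend or in the unmoderated test (adjusted p of 0.0538 and 0.134). The set 228474_s_at had a value of 0.05, with signals of 19.8 to 40.7 on all arrays. The sets 230636_s_at and 203541_s_at were below the brightness filter, which was set on the mean of the log2 values and matches a signal of about 28, and were not tested. The mean over all 5 sets, dim ones included, was 0.42 and did not pass (adjusted p = 0.172). With a constant of 60 in place of 15 the log2 change of KLF9 was 0.83 and with a constant of 1 it was 1.49, so its size depends on how dim signals are treated.

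KLF10 and KLF11, which are induced early by TGF-beta and restrain growth, had changes of opposite sign. KLF10 has 1 probe set here, 202393_s_at, with 3096, 3187 and 3535 against 4037, 3853 and 3806. The LSD1 siRNA arrays were all higher, by a log2 change of 0.25 (SE 0.07, limma adjusted p = 0.00860). In the unmoderated test its adjusted p was 0.0516. KLF11 on 218486_at read 567, 539 and 640 with control siRNA and 471, 454 and 512 with LSD1 siRNA, all lower. Its change in log2 was -0.27 (SE 0.10, limma adjusted p = 0.0472), just inside the threshold. In the test of every probe set the same values gave an adjusted p of 0.0564, which did not pass. Leaving out control replicate 1 or 3, or LSD1 siRNA replicate 1 or 2, also ended the call, with adjusted p of 0.0769, 0.148, 0.109 and 0.146. The second KLF11 set, 1553137_s_at, had a value of -0.07 with overlapping groups.

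KLF13, a Sin3-recruiting factor known for activating RANTES in T cells, rose on the only 1 of its 4 probe sets that was bright enough to be tested. Set 225390_s_at gave 273, 267 and 252 with control siRNA and 460.0, 384 and 342 with LSD1 siRNA. The LSD1 siRNA arrays were all higher and more spread out than the control arrays. The change in log2 was 0.55 (SE 0.13, limma adjusted p = 0.00440). The sets 1564463_at, 219878_s_at and 230094_at read between 2.08 and 43.5, with overlapping groups. Averaged with these dim sets, KLF13 was at 0.11 (adjusted p = 0.734).

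**Figure D2:**
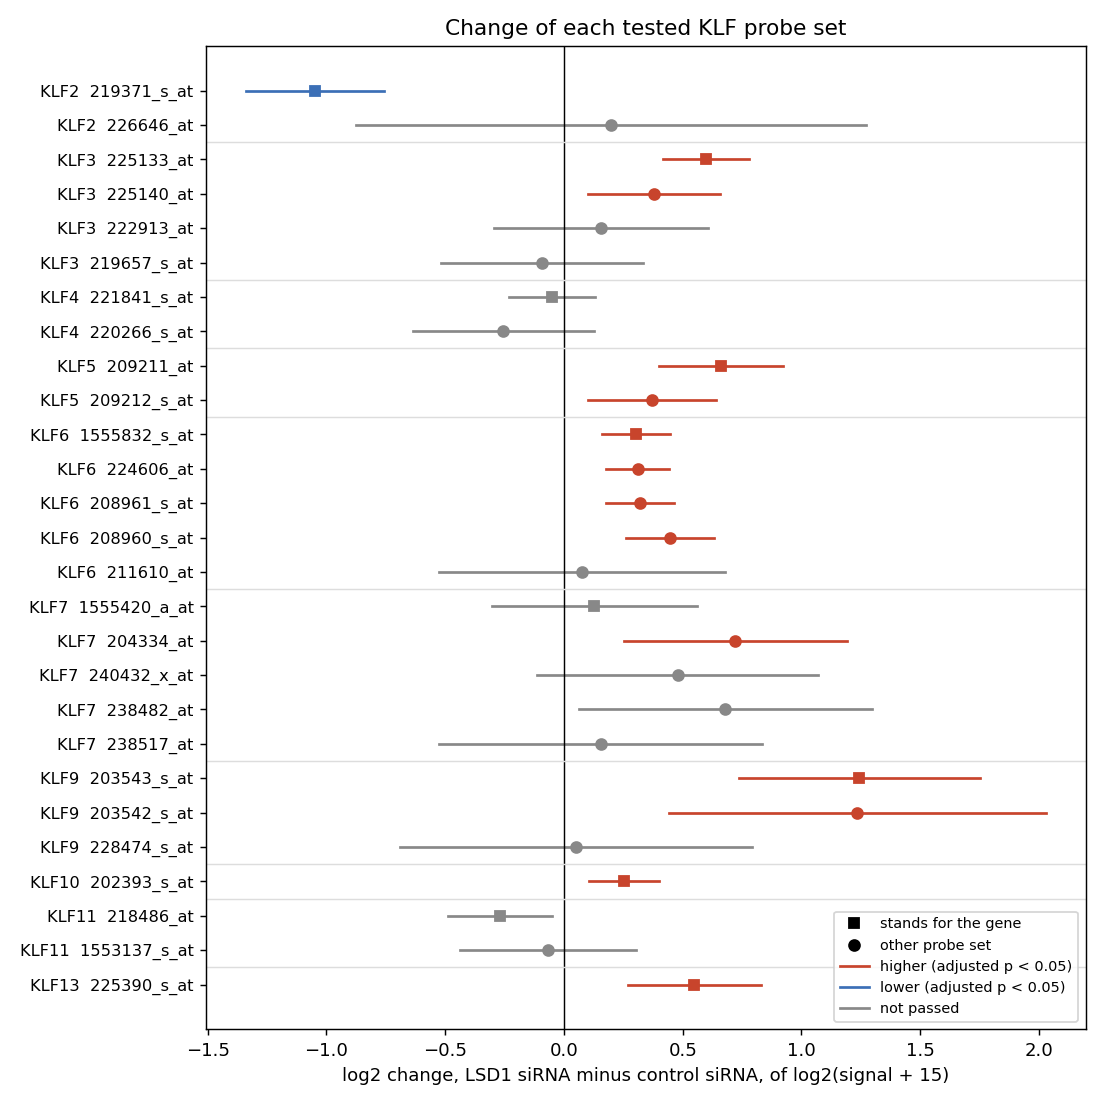
Log2 change of the 27 tested KLF probe sets (points) with 95% intervals (lines), where squares are the sets that stand for their gene and colour gives the call in the test of every probe set. The rises are repeated on 4 sets for KLF6 and on both for KLF5, while KLF11, called at -0.27 with 1 set per gene, is not called here.

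Over probe sets rather than genes, 27 of the 32 sets were bright enough to be tested, and the 5 that were not belong to KLF9 and KLF13. Of the 27, 13 were higher and 1 was lower, where 17.0% of the 27079 probe sets tested were higher and 17.4% lower (34.4% in all). On 13 sets all LSD1 siRNA arrays lay above all control arrays and on 2 all lay below, beside 22.5% and 23.5% of all probe sets tested (46.0% in all). The median log2 change of the 27 sets was 0.30, beside -0.02 over all sets tested. Sets of 1 gene share their transcript and are not independent.

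**Figure D3:**
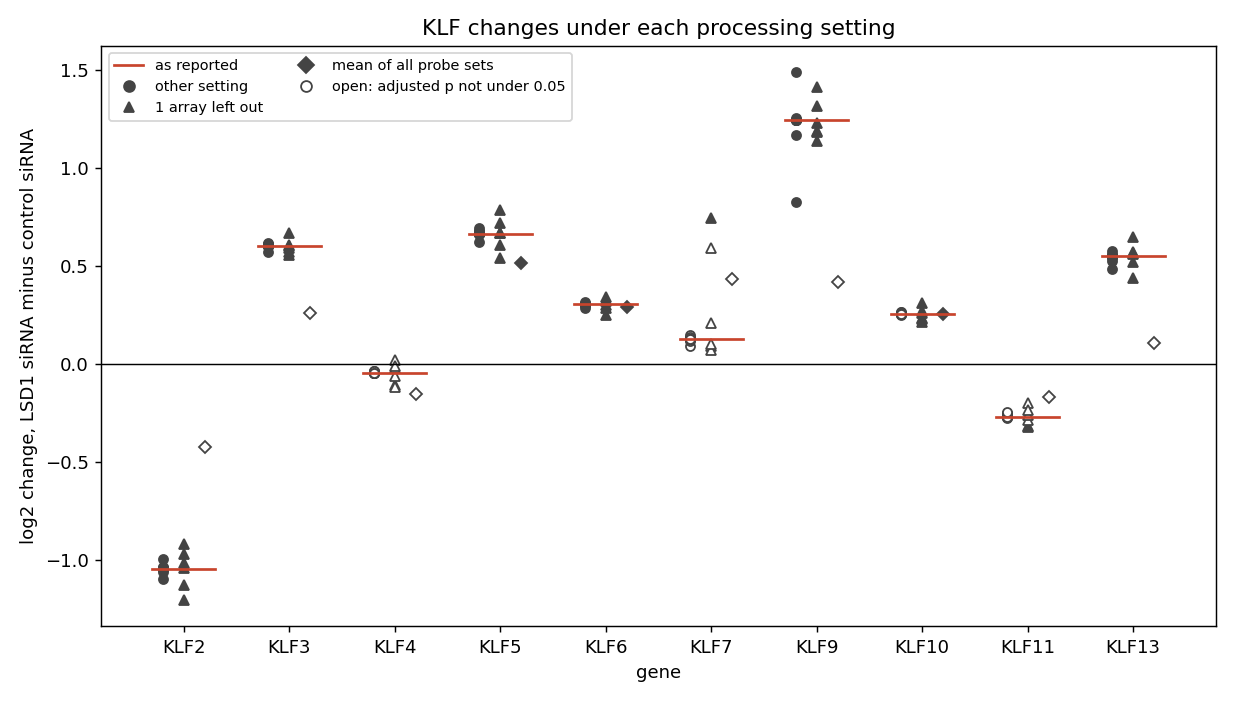
Log2 change of each KLF gene as reported (red line), under other settings (circles), with 1 array left out (triangles) and with the mean of all probe sets (diamonds), where open symbols did not pass at an adjusted p of 0.05. KLF5 and KLF6 are filled throughout, and the diamonds of KLF2, KLF3, KLF9, KLF11 and KLF13 are open and nearer to 0.

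The genes whose 6 values were most like those of KLF3, by root mean square difference in log2 after subtracting the control mean, were FAM3C (0.03), LAMTOR3 (0.03) and UBR1 (0.03), of 13821 genes compared. For KLF2 they were SNRNP70 (0.08), PPP2R3B (0.09) and PAGR1 (0.12). With 2 groups of arrays this likeness mostly restates an equal change between the groups.

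In the rest of the SP and KLF family, SP1, SP4, KLF16, SP2 and SP5 fell. Of 17 other family genes, 10 were tested, 0 were higher and 5 were lower, with a median log2 change of -0.27. No tested gene of this list was higher at an unadjusted limma p under 0.05 either. The counts of this and the following lists stand beside 19.8% of all genes tested that were higher and 21.3% that were lower. SP1, the ubiquitous activator that binds the GC box, had signals of 2224 ± 36.2 and 1612 ± 59.3 (SD, n = 3), a change in log2 of -0.46 (adjusted p = 9.69e-05). SP4, KLF16 and SP2 were at -0.61, -0.54 and -0.29, and with the mean of all probe sets all 3 did not pass (adjusted p of 0.603, 0.419 and 0.442). Without LSD1 siRNA replicate 2 the count of lower genes was 3, and with the mean of all probe sets it was 2. SP5, at -0.56 (adjusted p = 0.0410), lost its call in 8 of 18 other settings. These included leaving out control replicate 1 or 2 and LSD1 siRNA replicate 1 or 2 (adjusted p of 0.145, 0.104, 0.143 and 0.0685). KLF1, KLF8, KLF14, SP7 and SP8 were below the brightness filter and were not tested. KLF8, singled out after its values were seen, went the other way, with dim signals of 9.32, 2.68 and 21.0 against 34.4, 28.2 and 37.6, so that all LSD1 siRNA arrays were higher.

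Among corepressors and coactivators that KLF proteins recruit, 13 of 13 were tested, 0 were higher (1 at an unadjusted limma p under 0.05) and 7 were lower, with a median of -0.27. The count of higher genes was 1 when control replicate 3 or LSD1 siRNA replicate 2 was left out. It was also 1 with a filter at the 60th percentile, median centring, array weights and the replicate block. KAT2B was at 0.21 and did not pass in the reported fit (limma adjusted p = 0.0535). With the mean of all probe sets 4 genes were lower. The histone-binding subunits RBBP7 and RBBP4 were at -0.46 and -0.50, and the deacetylases HDAC1 and HDAC2 at -0.30 and -0.27. HDAC2 did not pass with the mean of all probe sets (-0.03, adjusted p = 0.812). SIN3A, the scaffold bound by KLF9, KLF10, KLF11 and KLF13, was at -0.42 and CTBP1, a partner of KLF3, at -0.27. Both passed in the reported fit and lost their calls with the mean of all probe sets (adjusted p of 0.0769 and 0.235), and SIN3A also in the unmoderated test (adjusted p = 0.0612).

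Upstream of KLF2 and KLF4 lies a kinase cascade in which MAP3K3 and MAP3K2 act on MAP2K5, which activates ERK5 (MAPK7) and through it the MEF2 factors. Of 7 genes tested, 1 was higher and 1 was lower, with a median of -0.01. These counts are near the shares over all genes tested (19.8% and 21.3%). MAP3K3 had signals of 889 ± 17.4 and 548 ± 86.0 (SD, n = 3), a change in log2 of -0.70 (adjusted p = 0.000321). MEF2C had signals of 297 ± 26.7 and 441 ± 27.0 (SD, n = 3), a change in log2 of 0.55 (adjusted p = 0.00194). Averaging its probe sets gave 0.33 and ended the call (adjusted p = 0.116). Without LSD1 siRNA replicate 3 the count of higher genes in this list was 2. MAPK7 (-0.17) and MAP2K5 (-0.01) did not pass. Of 7 tested genes for turnover of KLF proteins, 2 were higher and 0 were lower (0 at an unadjusted limma p under 0.05), with a median of 0.18. Those higher were the ubiquitin ligase genes WWP1, whose product acts on KLF2 and KLF5, at 0.59, and SMURF2 at 0.47.

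Genes that share inducers with KLF members moved both ways, as did all genes tested (19.8% higher and 21.3% lower). Of 11 tested immediate early genes, the class of rapid responders to which several KLF genes belong, 3 were higher and 2 were lower, with a median of 0.11. IER3, DUSP1 and JUN were at 0.69, 0.38 and 0.34, and IER2 and FOS at -0.33 and -0.67. With the mean of all probe sets JUN was at 0.09 (adjusted p = 0.362) and DUSP1 at -0.06 (adjusted p = 0.724). With the brightest probe set of any suffix JUN was at 0.02 (adjusted p = 0.896), so the count of higher genes was 2 there and 1 with the mean of all probe sets. FOS lost its call in 12 of 17 other settings, each of the 6 with 1 array left out among them. Of 7 tested glucocorticoid and circadian genes, 1 was higher and 3 were lower, with a median of -0.15. BHLHE40, a clock repressor, rose by 0.76, while FKBP5, a standard glucocorticoid target, was at -0.49, PER2 at -0.79 and the receptor gene NR3C1 at -0.21. Averaging probe sets put PER2 at -0.48 (adjusted p = 0.0528), and NR3C1, whose groups overlapped, lost its call in 8 of 18 other settings. Among these were the fits without control replicate 2 or 3 and LSD1 siRNA replicate 1 or 3 (adjusted p of 0.0982, 0.104, 0.122 and 0.115). KLF9, by comparison, was at 1.24.

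Of 9 tested TGF-beta response genes, 5 were higher and 2 were lower, with a median of 0.32. Over all genes tested the shares were 19.8% and 21.3%. The receptor genes TGFBR1 and TGFBR2 were at 0.85 and 0.55, and the pathway inhibitors SMAD7 and SKIL at 0.97 and 0.84, beside 0.25 for KLF10 and -0.27 for KLF11. SMAD3 and SMAD4 were at -0.24 and -0.28. Averaging its probe sets put SMAD3 at 0.18 (adjusted p = 0.127), and SMAD4 lost its call there as well (adjusted p = 0.0754). The count of lower genes was 0 when LSD1 siRNA replicate 2 or 3 was left out, and 1 without control replicate 1 or 3.

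Of 13 tested genes reported as targets of KLF proteins, 6 were higher and 4 were lower, with a median of 0.16. Over all genes tested the shares were 19.8% and 21.3%. CDKN1A, the p21 gene that KLF4 and KLF6 are known to activate, rose by 1.79, and PLAUR, the urokinase receptor gene reported as a KLF6 target, rose by 1.08. LGALS3 rose by 0.79, but averaging its probe sets gave 0.20 (adjusted p = 0.403). Also higher, while KLF2 fell, were THBD at 0.48 (limma adjusted p = 0.000365) and S1PR1 at 0.87 (adjusted p = 0.0355). S1PR1 was dim, with mean signals of 35.6 with control siRNA and 76.4 with LSD1 siRNA. ITGB2 was at 0.59. CCND1 and CCNB1, cyclin genes, were at -0.71 and -0.65. PDGFA, a target of KLF5, was at -0.29 while KLF5 rose, and CDKN1C was at -0.52. Neither PDGFA nor CDKN1C passed with the mean of all probe sets (adjusted p of 0.487 and 0.223). Both also lost their calls without control replicate 1 (adjusted p of 0.0833 and 0.0745) and with LSD1 siRNA replicate 2 left out (0.0794 and 0.0515), and PDGFA also with LSD1 siRNA replicate 3 left out (0.0594).

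**Figure D4:**
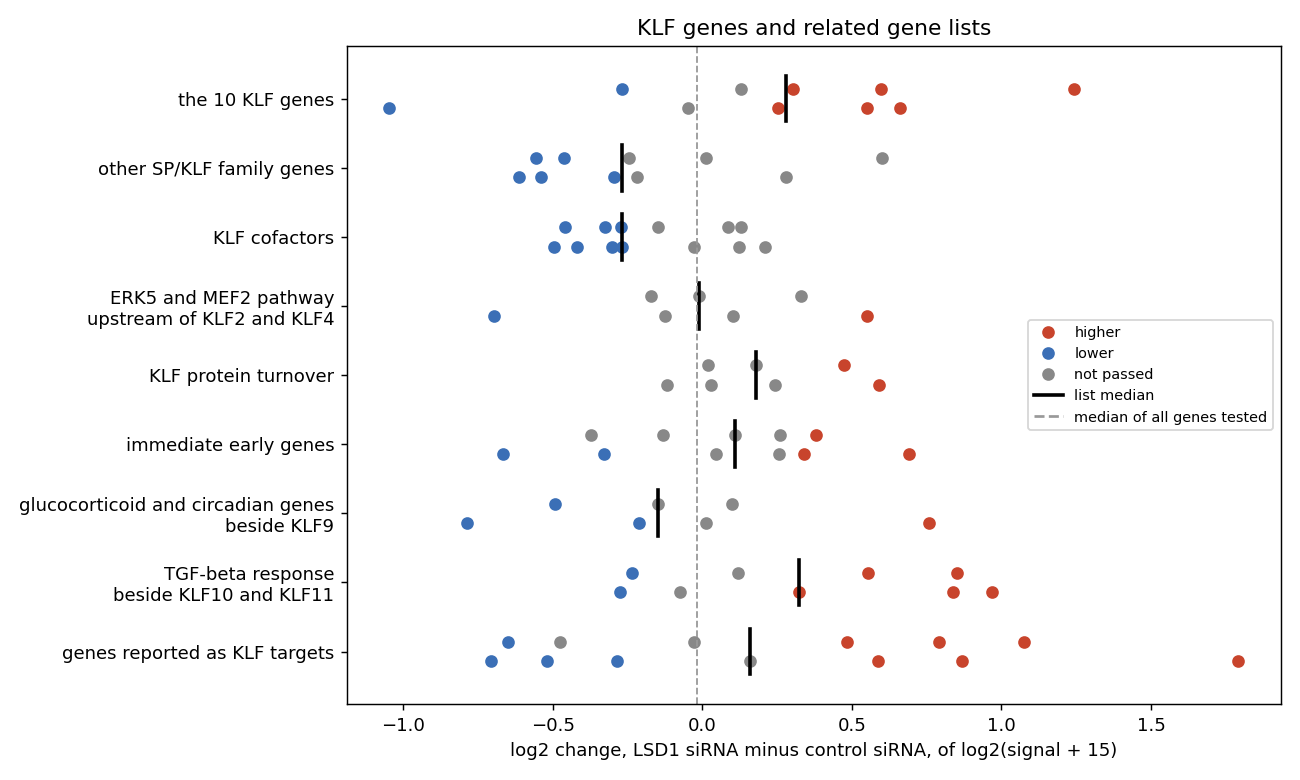
Log2 change of the 10 KLF genes and of the tested genes of 8 related lists (points, coloured by call), with each list's median (black bar) and the median of all genes tested (dashed line). The median of the 10 KLF genes is 0.28, and those of the other SP and KLF family genes and of the cofactors are both -0.27. Members and lists were chosen with earlier results of these data known, so these medians describe the lists and test nothing.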

How the data were processed

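MDA-MB-231 RNA (2.5 ug of total RNA per array) was measured on 6 Affymetrix arrays. The authors deposited linear MAS5 signal intensity values, made with GCOS and Affymetrix Expression Console 1.1, per the submitters' processing notes. Each array has the same trimmed mean, and such scaling hides changes in a cell's total RNA. Detection calls were not used here. The platform annotation supplied gene symbols, which were updated through RefSeq gene identifiers (0 changed). Of 54675 probe sets, 1801 had several symbols and 11777 were not listed. Control sets (62) were left out.

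The scale was log2(signal + 15), with 15 the rounded 25th percentile of signal. Features with a mean above the 40th percentile were tested with limma 3.58.1 in R 4.3.3 (trended eBayes, two-sided, Benjamini-Hochberg at 0.05), once with the brightest probe set per gene (x-suffix sets only where there was no other) and once with every probe set. The tests were tested on simulated data. All members are named, and from each related list up to 4 genes with the smallest p plus those against the majority. SIN3A, CTBP1, KAT2B, SP5, KLF8, MAPK7, MAP2K5, THBD, S1PR1 and ITGB2 were chosen after their values were seen. Members and lists were chosen with earlier results of these data known. Alternatives are given in the closing section. Promoter windows are from RefSeq (GRCh38.p14). Figures used matplotlib 3.10.9.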

Additional observations from a re-analysis of the deposited data

How the results depend on the processing

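The number of arrays limits the precision, and dim probe sets carry the widest intervals. Alternatives were a constant of 1 or 60, no filter or one at the 60th percentile, quantile normalization, median centring, no intensity trend, an unmoderated test, array weights, a replicate block, leaving out each array, other rules for the probe set that stands for a gene, and all probe sets of the array. Those of the related lists were chosen after seeing the data. With the mean of all probe sets 3 members were higher and 0 lower. Of the 13012 genes tested there 34.0% passed, and 5629 had an unadjusted p under 0.05. The count of lower members was 1 in place of 2, by loss of KLF11, with no filter, quantile normalization, median centring, no intensity trend, the unmoderated test and array weights. Leaving out 1 array gave 6 to 7 higher and 1 to 2 lower members, and 10 to 13 higher probe sets with 1 lower. With a filter at the 60th percentile KLF9 was too dim to be tested, and 5 members were higher. In the unmoderated test 5 members were higher too, by loss of KLF10. Higher probe sets numbered 10 with no filter, 10 with a filter at the 60th percentile and 9 with no intensity trend. The count of higher probe sets was 8 in the unmoderated test, and that of lower sets was 2 with a filter at the 60th percentile and 2 with the replicate block, by gain of KLF11 (adjusted p = 0.0410). The block changed no other call on a KLF gene or probe set. Same-numbered replicates did not deviate together (correlations of 0.01, -0.01 and 0.02), so their numbers were not read as pairs. KLF5 and KLF6 kept their direction and call in all 18 alternatives at gene level, KLF4 passed in none of 18, and KLF11 lost its call in 11 of 18. With the mean of all probe sets DUSP1 was at -0.061 and SMAD3 at 0.18, both with the sign changed. Unless stated, the cause was not tested.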
